A study of Mus musculus with 12 samples.

Results

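The 51 genes described here are interferon-stimulated genes, taken from a list of symbols and required to hold at least 120 counts summed over the 12 libraries. All 51 were found among the 46078 genes listed and all met that minimum, the lowest with 532 counts. RNA was sequenced from CD8 T cells, the T lymphocytes that kill infected cells, which came from the spleen of C57BL/6 mice and were harvested after 7 days of culture. The cultures of every group received the interleukins IL-2 and IL-15, and the labels name no further addition for the group called IL-2 + IL-15. The group named RA also received retinoic acid, the active metabolite of vitamin A, the group named TGFβ received transforming growth factor beta, and the group named TGFβ + RA received both. Each group had 3 libraries of 18300206 to 33477037 counts assigned to genes. The labels call them biological replicates without naming an animal or a culture, and the spread behind each p-value is that between these samples, which may be technical.

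Interferons are secreted proteins that cells release when they sense viral nucleic acid or, for interferon gamma, when T and NK cells are activated. Type I interferons bind the receptor of IFNAR1 and IFNAR2, which is bound to the kinases JAK1 and TYK2. A complex that holds STAT2 and IRF9 then binds the interferon-stimulated response element (ISRE). Interferon gamma signals through IFNGR1 and IFNGR2 with JAK1 and JAK2, and leads to binding at the gamma-activated site (GAS). The genes so induced encode sensors of foreign nucleic acid, enzymes and GTPases that block viral or bacterial growth, and regulators of the pathway itself. In CD8 T cells the pathway is known as a further signal beside antigen and costimulation.

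The promoters of 7 of the genes are shown because they carry the elements that connect these genes to the pathway, and because genes with different behaviour in the cultures are among them. Each runs 5′ to 3′ on the strand of the gene from 150 bases before to 50 bases after the start annotated by RefSeq on GRCm38.p6. Capitals mark the ISRE core (GAAA, then 2 bases of any kind, then GAAA) and the GAS (TTCNNNGAA), each searched on both strands, so that an ISRE core on the other strand begins TTTC and ends TTTC. Overlapping matches are joined.
Isg15, chr4:156200769-156200968, minus strand: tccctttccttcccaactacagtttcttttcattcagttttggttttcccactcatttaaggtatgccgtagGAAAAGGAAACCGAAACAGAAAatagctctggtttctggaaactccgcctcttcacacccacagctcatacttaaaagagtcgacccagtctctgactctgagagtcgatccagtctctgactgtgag
Oas1a, chr5:120907476-120907675, minus strand: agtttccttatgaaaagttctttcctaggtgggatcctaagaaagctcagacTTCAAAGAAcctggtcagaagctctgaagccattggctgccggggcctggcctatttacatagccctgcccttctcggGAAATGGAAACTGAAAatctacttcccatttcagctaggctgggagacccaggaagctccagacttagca
Ifit1, chr19:34640739-34640938, plus strand: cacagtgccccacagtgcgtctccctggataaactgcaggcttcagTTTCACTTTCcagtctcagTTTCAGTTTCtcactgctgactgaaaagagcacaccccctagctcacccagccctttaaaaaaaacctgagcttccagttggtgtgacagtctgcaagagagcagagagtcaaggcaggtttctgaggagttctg
Irf1, chr11:53769864-53770063, plus strand: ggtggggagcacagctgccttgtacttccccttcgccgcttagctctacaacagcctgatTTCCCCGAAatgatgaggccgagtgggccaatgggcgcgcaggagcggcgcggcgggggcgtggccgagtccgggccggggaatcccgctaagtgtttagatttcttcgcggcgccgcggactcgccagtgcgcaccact
Gbp2, chr3:142620513-142620712, plus strand: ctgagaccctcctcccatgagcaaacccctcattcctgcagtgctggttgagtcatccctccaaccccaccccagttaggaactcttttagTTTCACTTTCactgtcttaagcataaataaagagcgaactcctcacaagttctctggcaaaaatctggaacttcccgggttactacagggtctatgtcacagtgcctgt
Igtp, chr11:58199406-58199605, plus strand: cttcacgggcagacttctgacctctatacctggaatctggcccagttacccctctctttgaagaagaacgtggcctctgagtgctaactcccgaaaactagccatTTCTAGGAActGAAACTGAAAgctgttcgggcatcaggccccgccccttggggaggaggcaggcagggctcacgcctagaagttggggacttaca
Irgm2, chr11:58214827-58215026, plus strand: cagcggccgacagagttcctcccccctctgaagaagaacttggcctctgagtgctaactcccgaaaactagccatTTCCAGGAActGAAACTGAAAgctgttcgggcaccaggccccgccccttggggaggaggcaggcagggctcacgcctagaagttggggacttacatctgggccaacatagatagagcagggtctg

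In Isg15 the run in capitals is made of 3 overlapping ISRE cores, the first of which begins 78 bases before the start. In Oas1a 2 overlapping cores lie just before the start and a GAS lies farther upstream. Ifit1 holds 2 separate cores on the other strand, Irf1 holds a GAS and no ISRE core, and Gbp2 holds a single core. Igtp and Irgm2 carry a GAS followed closely by an ISRE core, which begin 45 and 34 bases before the start in Igtp and 75 and 64 bases before it in Irgm2.

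RefSeq promoter windows of 300 bases, from 250 before to 50 after a start, were at hand for 39 of the 51 genes. An ISRE core was found in 21 of these 39 (53.8%), against 1079 of the 27025 genes with a window (3.99%, or 3.44% of all windows). A GAS was found in 10 of the 39 (25.6%) against 9.55% of all genes (8.3% of all windows), and both motifs in 6 (15.4%) against 0.614%. By role, an ISRE core was found in 6 of 6 guanylate binding and immunity-related GTPase genes with a window, 3 of 3 sensor genes and 3 of 4 IFIT genes. It was found in 2 of 3 Schlafen genes, 2 of 4 OAS genes and 2 of 5 genes of ISG15 and other modifiers. The lowest shares were 2 of 9 other effector genes and 1 of 5 factor genes. Genes without a window were Dhx58, Zbp1, Oas2, Mx1, Mx2, Usp18, Parp9, Parp14, Rtp4, Ifi27l2a, Gbp4 and Iigp1. A match is a run of letters and does not show that a factor was bound.

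**Figure D1:**
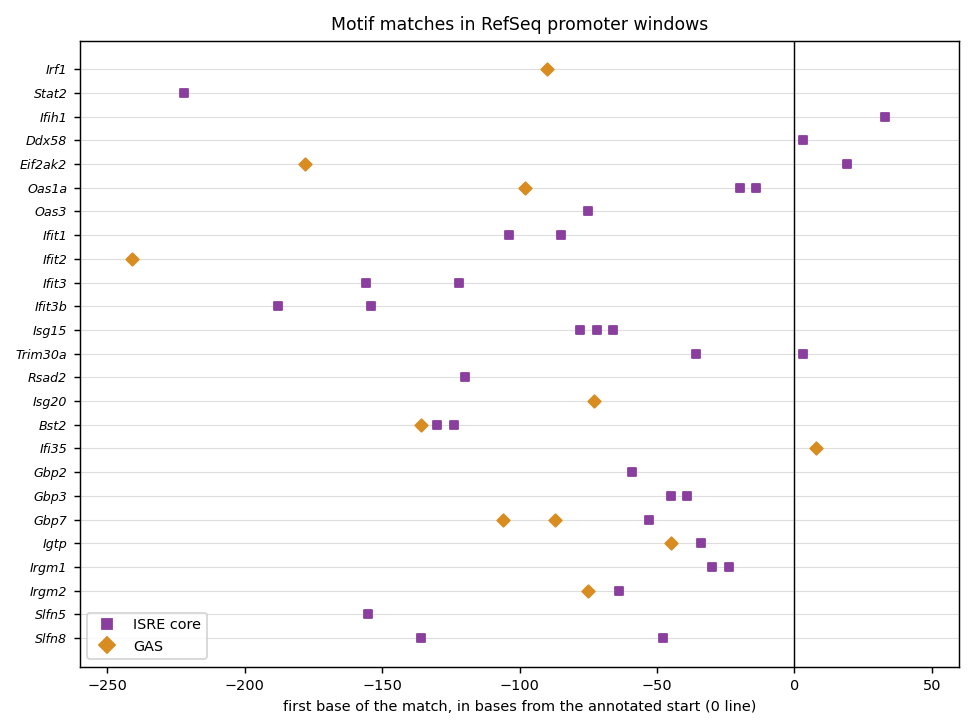
Position of each motif match in the promoter windows of the genes that hold one, with the first base of the match in bases from the annotated start on the x axis and genes on the y axis. Squares are ISRE cores and diamonds are GAS matches, and most ISRE cores lie within 200 bases of the start.

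For many of the 51 genes the level depended on the combination of the additions. For 15 of them no such dependence was called in the test of it given below. RA alone and TGFβ alone each left more of the genes lower than higher, whereas both together left more of them higher. A gene is called when its adjusted p is under 0.05 in the quasi-likelihood test of edgeR, adjusted by Benjamini and Hochberg over the 14009 genes tested. All 51 genes were among those tested. Fold changes are log2 values ± SE.

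With RA relative to IL-2 + IL-15, 3 of the 51 genes were called higher, 16 lower and 32 were not called, where 12.4% of all tested genes were called higher and 14.3% lower. Their median log2 fold change was -0.17, with 40 of 51 values below 0, where the median over all tested genes was within 0.0114 of 0 in every comparison. With 9 libraries the count of 16 rose to 26. Left out together were IL-2 + IL-15 replicate 1, RA replicate 3 and TGFβ + RA replicate 1. They were chosen after seeing the data, because they stood apart from the others of their group over all genes or over the 51. That choice drew on the values of the 51 genes, so the rise cannot count as support for the lower calls. The share of all tested genes called in that setting is not given. With TGFβ relative to IL-2 + IL-15, 8 genes were called higher and 27 lower, against 20.7% and 22.4% of all tested genes, and the median was -0.31. With TGFβ + RA relative to IL-2 + IL-15, 28 were called higher and 13 lower, against 30.8% and 32.4%, with a median of 0.28.

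Adding RA to TGFβ gave the most one-sided result. Of the 51 genes, 37 were called higher and 0 lower in TGFβ + RA against TGFβ, where 20.3% of all tested genes were called higher and 22.7% lower. Unadjusted, 1 gene, Cmpk2, was lower at p under 0.05, and the Wald test of DESeq2 called 0 lower. The median was 0.53. For 37 genes the 3 libraries with both additions lay above the 3 TGFβ libraries, and for 1 they lay below, a split shown by 29.2% and 28.7% of all tested genes. Such separation was shown by 3 genes higher and 15 lower in RA relative to IL-2 + IL-15 (17.3% and 18.7% of all tested genes), 11 and 28 in TGFβ (27.4% and 28.7%), and 25 and 11 in TGFβ + RA (34.5% and 35.4%). In TGFβ + RA against RA it was shown by 30 and 6 (31.7% and 32.8%). Against RA, TGFβ + RA had 32 genes called higher and 6 lower, where 29.4% and 30.8% of all tested genes were called. These 2 comparisons share the TGFβ + RA libraries and are not independent.

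At a change of at least 2-fold the counts were smaller. RA alone left 3 genes lower by that much (3.81% of all tested genes). TGFβ alone left 3 higher and 13 lower (4.86% and 4.33%), and TGFβ + RA left 7 higher and 4 lower (6.35% and 12.1%). Between TGFβ + RA and TGFβ 12 genes differed by that much, each higher with both (2.90% of all tested genes). The mean was highest in TGFβ + RA for 31 genes, in IL-2 + IL-15 for 15, in RA for 4 and in TGFβ for 1. It was lowest in TGFβ for 26 and in RA for 20.

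**Figure D2:**
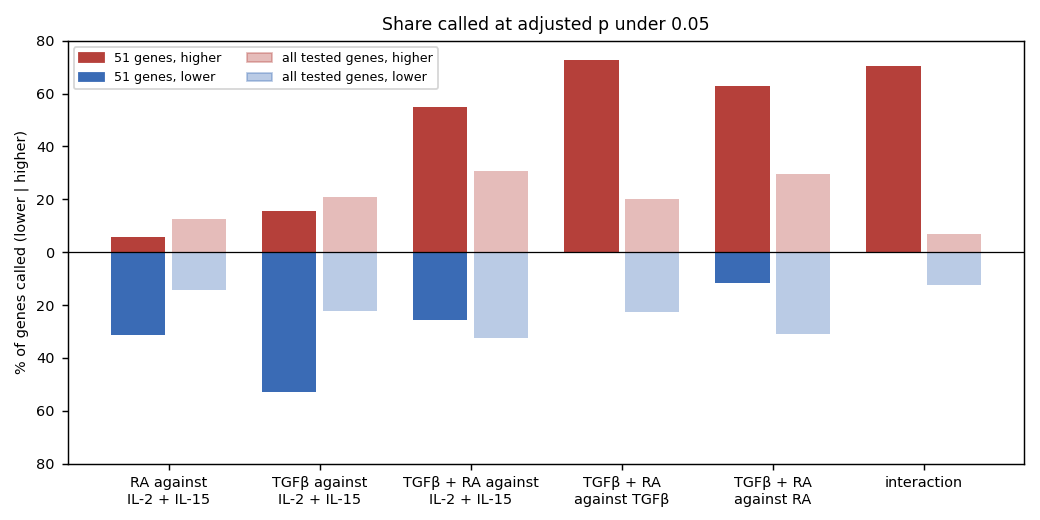
Percentage of genes called higher (up) and lower (down) at adjusted p under 0.05 in each comparison, with the 51 interferon-stimulated genes in full colour and all 14009 tested genes in pale colour. In TGFβ + RA against TGFβ and in the interaction 0 of the 51 genes were called lower.

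**Figure D3:**
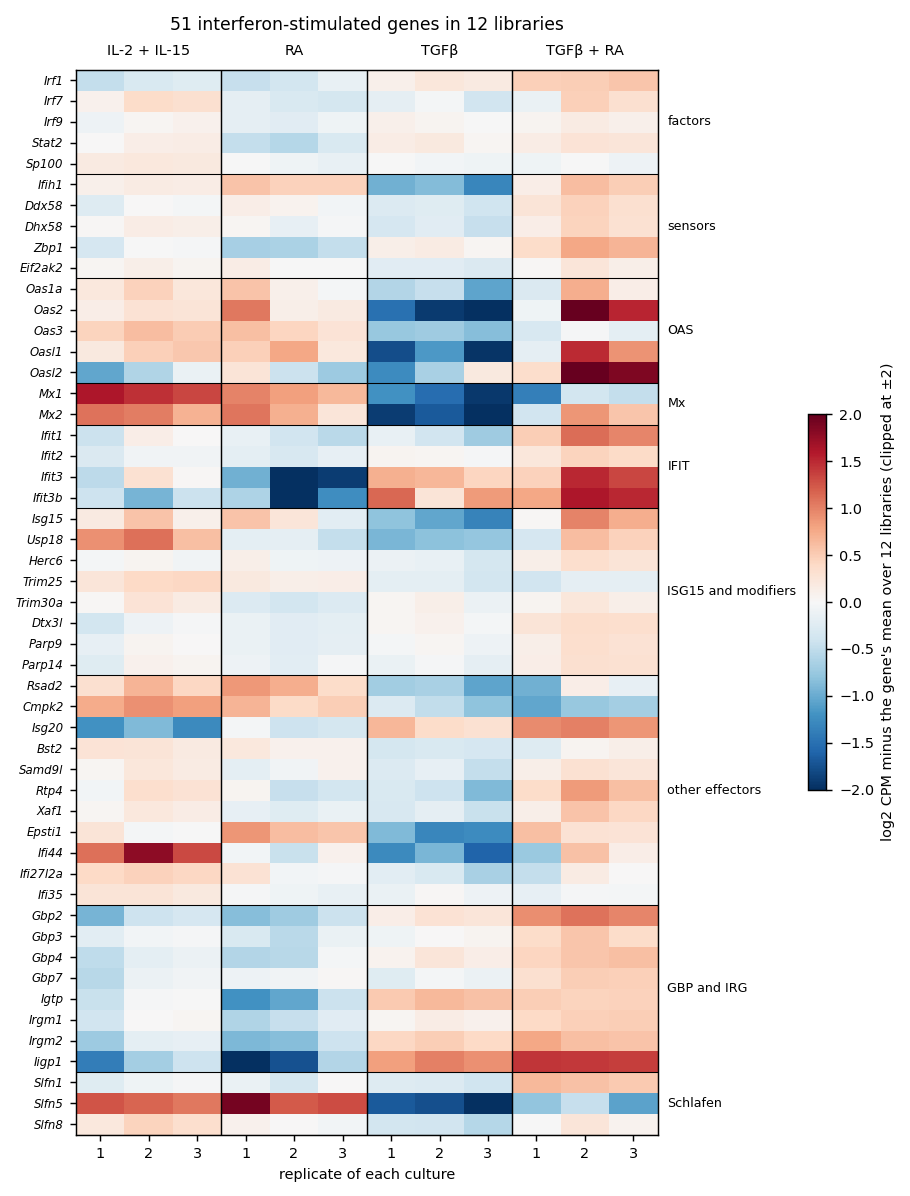
Log2 CPM of each of the 51 genes (rows, grouped by role) in each of the 12 libraries (columns), as the difference from the mean of the gene and clipped at ±2. Most OAS genes and both Mx genes are low in TGFβ, and Gbp2 and Iigp1 are low in the 6 libraries without TGFβ. Igtp and Irgm2 are lower in those 6 than in the libraries with TGFβ, but near their mean in IL-2 + IL-15 replicates 2 and 3. TGFβ + RA replicate 1 is paler than replicates 2 and 3.

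The libraries were those of T cells by their markers: all 8 genes fixed for CD8 T cell identity were expressed, with sums of 4863 to 5418 CPM (counts scaled by TMM to a common library size) in IL-2 + IL-15, 4891 to 5132 in RA, 7375 to 7695 in TGFβ and 8316 to 8624 in TGFβ + RA. Of the markers of plasmacytoid and other dendritic cells, which are strong sources of interferon, Siglech and Cd209a had 0 counts in all libraries. The sum of that list was 1112 to 1298 CPM in RA and 1126 to 1251 in TGFβ + RA against 106 to 167 in IL-2 + IL-15 and 53.3 to 56.2 in TGFβ. Most of it with RA was Ccr9, a gut-homing receptor of T cells, at 743, 825 and 1075 CPM in RA and 1177, 1054 and 1105 in TGFβ + RA. Most of the rest in RA was Itgax, an integrin chain of dendritic cells that activated T cells also carry, at 362, 369 and 215 CPM against 154, 99.4 and 91.5 in IL-2 + IL-15. Itgax was called higher with RA (1.46 ± 0.20, adjusted p = 1.5e-04) and in TGFβ + RA against TGFβ (1.74 ± 0.23). Relative to IL-2 + IL-15 it was called lower with TGFβ (-2.64 ± 0.23), whereas Ccr9 (1.99 ± 0.19) and Zbtb46 (3.35 ± 0.24) were called higher. Tcf4, the other gene of that list tested, was not called there. Zbtb46 had 9.04, 11.4 and 10.2 CPM in TGFβ against 0.864, 1.22 and 0.921 in IL-2 + IL-15. It was called lower in TGFβ + RA against TGFβ (-3.09 ± 0.23). Markers of neutrophils, monocytes and macrophages summed to 38.4 to 49.1, 11.3 to 25.7, 7.49 to 11.8 and 3.33 to 27.0 CPM in the 4 groups. Lyz2, S100a9 and S100a8 reached 323, 177 and 97 counts in TGFβ + RA replicate 3. In every other library most of that sum was a single gene, Itgam, an integrin chain, with 48.9 of the 49.1 CPM in IL-2 + IL-15 replicate 1. Itgam, the only gene of that list tested, was called lower in RA, TGFβ and TGFβ + RA relative to IL-2 + IL-15 (-1.14 ± 0.24, -2.14 ± 0.25 and -3.40 ± 0.28). NK cell markers summed to 8.78 to 19.1, 19.0 to 55.9, 0.864 to 2.22 and 1.38 to 1.73 CPM, and B cell markers to 12.8 to 16.3, 16.0 to 18.3, 27.8 to 30.4 and 21.8 to 25.9 CPM. CD4 T cell markers summed to 67.0 to 75.2, 72.3 to 90.4, 84.2 to 87.9 and 195 to 267 CPM. Of that list only Foxp3, a factor of regulatory T cells, was higher in TGFβ + RA, at 236, 240 and 167 CPM, whereas Cd4 and Zbtb7b were called lower relative to IL-2 + IL-15 (-1.53 ± 0.36 and -1.30 ± 0.10). Erythroid and stromal markers, with Hbb-bs at 0 counts, summed to 92.9 to 106, 78.2 to 95.4, 65.0 to 73.4 and 55.4 to 64.7 CPM. The part of these differences in the results was not tested. In bulk RNA, fewer cells that express a gene and less RNA per cell cannot be told apart.

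Type I and lambda interferon genes were almost silent, and Ifng was expressed at low levels. Of 19 type I interferon genes listed, 16 had 0 counts in all libraries and the other 3 held 12 counts in all, with at most 3 in a library. The 2 interferon lambda genes listed had 0 counts, which allows up to 3 counts in each library. Ifng, which encodes interferon gamma, had 777, 65 and 103 counts in IL-2 + IL-15, 40, 57 and 30 in RA, 246, 176 and 187 in TGFβ and 22, 7 and 8 in TGFβ + RA. IL-2 + IL-15 replicate 1 stood far above replicates 2 and 3, and TGFβ + RA held the lowest values. Ifng was called lower in TGFβ + RA against TGFβ (-4.03 ± 0.98, adjusted p = 0.00445), and without TGFβ + RA replicate 1 the value was -4.96. Most interferon-stimulated genes rose in that comparison, and a link between the level of Ifng and theirs was not tested. Ifng was also lower in TGFβ + RA relative to IL-2 + IL-15 (-4.56 ± 0.95), with -2.57 without IL-2 + IL-15 replicate 1 and -5.48 without TGFβ + RA replicate 1. For RA relative to IL-2 + IL-15 the value was -2.68 ± 0.78 (adjusted p = 0.0218), and it became -0.67 without IL-2 + IL-15 replicate 1. Ifng lost that call on leaving out IL-2 + IL-15 replicate 1 (adjusted p = 0.199), RA replicate 1 (0.0582) or RA replicate 2 (0.0616) or with only the 6 libraries compared (0.0802) or with the 9 libraries (0.073) (range over all alternatives 2.2e-04 to 0.199).

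The receptors and kinases of the pathway were expressed in every group except for Ifnlr1, the receptor for interferon lambda. Ifnlr1 had 17, 17 and 14 counts in IL-2 + IL-15, 3, 0 and 2 in RA, 12, 9 and 9 in TGFβ and 0, 0 and 0 in TGFβ + RA. Ifngr1, the ligand-binding chain of the interferon gamma receptor, was the most abundant receptor gene in CPM, with 620.1, 574 and 588 CPM in IL-2 + IL-15, 946, 829 and 872 in RA, 565, 555 and 538 in TGFβ and 915, 913 and 862 in TGFβ + RA. The 6 libraries with RA lay above the 6 without it, at 0.57 ± 0.06 for RA relative to IL-2 + IL-15 and 0.70 ± 0.06 for TGFβ + RA against TGFβ. Ifngr2, the signalling chain of that receptor, was higher with TGFβ (1.20 ± 0.25), at 15.2 ± 4.66 CPM (SD, n = 3) in IL-2 + IL-15 and 34.9 ± 5.35 in TGFβ. Ifnar2, a chain of the type I receptor, was lower in RA (-0.40 ± 0.06) and higher in TGFβ + RA against RA (0.59 ± 0.06). Ifnar1, its other chain, stayed between 242 ± 11.4 CPM in RA and 280.4 ± 9.16 in TGFβ (SD, n = 3).

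Jak2, the kinase bound to the interferon gamma receptor, had 161, 171 and 172 CPM in IL-2 + IL-15, 374, 393 and 323 in RA, 177, 184 and 179 in TGFβ and 353, 358 and 352 in TGFβ + RA. Its levels with RA were above all those without, both without TGFβ (1.11 ± 0.06) and with it (0.98 ± 0.06). Jak1 was lower with RA in both settings (-0.31 ± 0.05 and -0.32 ± 0.05).

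Among interferon regulatory factors that are not in the set, Irf4, which is induced by T cell receptor signalling, had 200.2, 196 and 187 CPM in IL-2 + IL-15, 149.8, 151 and 152 in RA, 233, 238 and 234 in TGFβ and 60.3, 58.6 and 56.8 in TGFβ + RA. All 3 TGFβ + RA libraries lay below the other 9, at -2.004 ± 0.04 against TGFβ and -1.73 ± 0.04 relative to IL-2 + IL-15. Irf8, a factor of myeloid cells and effector T cells, was higher with TGFβ (1.39 ± 0.08) and lower when RA was added to TGFβ (-0.85 ± 0.08). Of the negative regulators, Socs1, an inhibitor of JAK kinases, was lower with RA (-0.61 ± 0.11) and higher with TGFβ (0.90 ± 0.10). The pathway list held 56 symbols beside the 51 genes, and 34 of its genes had counts enough to be tested. Of these 34, 8 were called higher and 12 lower with RA (12.4% and 14.3% of all tested genes), and 13 and 4 with TGFβ (20.7% and 22.4%). With both relative to IL-2 + IL-15 the counts were 16 and 10 (30.8% and 32.4%). In TGFβ + RA against TGFβ 8 of the 34 genes were called higher and 12 lower (20.3% and 22.7%). Their median log2 fold change in the last of these comparisons was 0.00596, where that of the 51 genes was 0.53.

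Of the 5 factor genes in the set, 4 were called lower with RA (14.3% of all tested genes). With TGFβ 1 was called higher and 2 lower (20.7% and 22.4%). Irf1, a transcription factor that both interferon types induce, had 339, 382 and 401 CPM in IL-2 + IL-15, 344, 368 and 426 in RA, 506, 553 and 539 in TGFβ and 657, 665 and 693 in TGFβ + RA (ENSMUSG00000018899, chr11:53770014-53778374, plus strand, GRCm38). The 3 TGFβ libraries lay above those without TGFβ, and the 3 TGFβ + RA libraries lay above all others. It rose with TGFβ (0.51 ± 0.08, adjusted p = 1.4e-04), and again when RA was added to TGFβ (0.33 ± 0.08). Irf7, the factor that amplifies type I interferon production, had 112, 136 and 133 CPM in IL-2 + IL-15, 93.5, 85.3 and 83.2 in RA, 93.8, 103 and 81 in TGFβ and 96.3, 147 and 133 in TGFβ + RA. RA libraries lay below those of IL-2 + IL-15 (-0.54 ± 0.13, adjusted p = 0.00748), and TGFβ + RA replicates 2 and 3, but not replicate 1, lay above the TGFβ libraries. Irf7 was called lower with TGFβ (-0.46 ± 0.13), but lost that call on leaving out TGFβ replicate 3 (adjusted p = 0.0599) (range over all alternatives 1.0e-04 to 0.0599). It was called higher in TGFβ + RA against TGFβ (0.44 ± 0.13), but lost that call on leaving out TGFβ replicate 3 (adjusted p = 0.0698), TGFβ + RA replicate 2 (0.0803) or TGFβ + RA replicate 3 (0.0528) (range over all alternatives 3.8e-05 to 0.0803).

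Stat2, which encodes a member of the type I complex, had 223, 242 and 246 CPM in IL-2 + IL-15, 159.8, 149 and 179.9 in RA, 245, 254 and 228 in TGFβ and 246, 269 and 261 in TGFβ + RA. The 3 RA libraries lay below the other 9, at -0.54 ± 0.07 relative to IL-2 + IL-15 (adjusted p = 7.3e-05), and TGFβ + RA was 0.67 ± 0.07 above RA. Irf9, the DNA-binding member of that complex, ranged from 153 ± 7.48 CPM in RA to 185 ± 7.62 in TGFβ + RA (SD, n = 3). Sp100, a component of nuclear bodies, was highest in IL-2 + IL-15 at 683 ± 4.31 CPM and was lower by a similar amount in the other groups, at -0.27 ± 0.05, -0.25 ± 0.05 and -0.26 ± 0.05 against it.

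When RA was added to TGFβ, 5 of 5 sensor genes were called higher (20.3% of all tested genes). With TGFβ alone 4 of 5 had been called lower (22.4%). Ifih1, which encodes the RNA sensor MDA5, had 27.3, 28.5 and 28.2 CPM in IL-2 + IL-15, 37.9, 35 and 35 in RA, 13.1, 14 and 10.3 in TGFβ and 28.1, 39 and 36.1 in TGFβ + RA (ENSMUSG00000026896, chr2:62595798-62646255, minus strand). Every TGFβ library lay below the libraries of the other groups. The TGFβ effect was -1.16 ± 0.12 (adjusted p = 4.7e-06) and that of adding RA to TGFβ was 1.47 ± 0.12 (adjusted p = 3.7e-07). Without TGFβ, RA left it 0.36 ± 0.11 higher, but lost that call on leaving out IL-2 + IL-15 replicate 1 (adjusted p = 0.0651), IL-2 + IL-15 replicate 2 (0.0547), IL-2 + IL-15 replicate 3 (0.0706), RA replicate 1 (0.0713) or RA replicate 2 (0.0531) (range over all alternatives 0.00408 to 0.0713).

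Ddx58, which encodes the RNA sensor RIG-I, had 138, 166 and 161 CPM in IL-2 + IL-15, 181, 174 and 159.8 in RA, 136, 140.1 and 125 in TGFβ and 198, 228 and 206 in TGFβ + RA. All TGFβ + RA libraries lay above the other 9, at 0.65 ± 0.08 against TGFβ (adjusted p = 1.3e-05) and 0.44 ± 0.08 relative to IL-2 + IL-15. Dhx58 encodes LGP2, a regulator of the other 2 RNA sensors. Its levels were 53, 57.9 and 56.5 CPM in IL-2 + IL-15, 53.5, 46.6 and 51.6 in RA, 41.4, 44.8 and 38.1 in TGFβ and 57.2, 70.8 and 64.2 in TGFβ + RA. The TGFβ libraries were the lowest of the 4 groups (-0.43 ± 0.08 for TGFβ), and adding RA raised it by 0.63 ± 0.08. Zbp1, a sensor of left-handed nucleic acid that can start cell death, had 128, 160.2 and 158 CPM in IL-2 + IL-15, 101, 104 and 116 in RA, 174, 181 and 166 in TGFβ and 208, 275 and 258 in TGFβ + RA. It was lowest in RA (-0.47 ± 0.10, adjusted p = 0.00399) and highest in TGFβ + RA, 0.73 ± 0.10 above IL-2 + IL-15, with no overlap between these groups. Eif2ak2 encodes PKR, a kinase that stops translation on double-stranded RNA. It had 76.6 ± 1.89, 75.4 ± 4.87, 61.3 ± 1.72 and 79.9 ± 6.24 CPM (SD, n = 3) in the 4 groups in the order given above.

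OAS enzymes make short oligoadenylates that activate RNase L, and Mx proteins are GTPases that trap viral nucleocapsids. With TGFβ alone 4 of 5 OAS genes and 2 of 2 Mx genes were called lower (22.4% of all tested genes). When RA was added to TGFβ, 5 of 5 and 2 of 2 were called higher (20.3%). Oas1a had 21.1, 25.2 and 21.5 CPM in IL-2 + IL-15, 27.2, 19.7 and 17.7 in RA, 12.1, 13.3 and 8.81 in TGFβ and 14.9, 30.2 and 20.1 in TGFβ + RA. TGFβ libraries lay below all others (-0.98 ± 0.23, adjusted p = 0.00367), and TGFβ + RA was 0.95 ± 0.23 above TGFβ. Oas2 had 8.08, 8.99 and 8.84 CPM in IL-2 + IL-15, 15.4, 7.97 and 8.33 in RA, 2.57, 1.89 and 1.68 in TGFβ and 6.93, 30.2 and 21.4 in TGFβ + RA. It was 4.20-fold lower with TGFβ (-2.07 ± 0.47) and 9.64-fold higher in TGFβ + RA than in TGFβ (3.27 ± 0.45, adjusted p = 5.4e-05), although replicate 1 of TGFβ + RA held less than replicates 2 and 3. That library lay below all those without TGFβ, and in TGFβ + RA relative to IL-2 + IL-15 Oas2 (1.20 ± 0.38) lost its call on leaving out TGFβ + RA replicate 2 (adjusted p = 0.103) (range over all alternatives 8.4e-05 to 0.103).

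Oas3, the most abundant of the OAS genes also per kilobase of exon, had 339.7, 383 and 355 CPM in IL-2 + IL-15, 379, 339 and 303 in RA, 147, 153 and 138 in TGFβ and 200.3, 246 and 217 in TGFβ + RA. The 6 libraries with TGFβ lay below the 6 without it. The TGFβ effect was -1.30 ± 0.09 (adjusted p = 1.1e-07), and with RA present it was -0.62 ± 0.09. Oasl1 and Oasl2 encode OAS-like proteins and were scarce, at means of 0.494 ± 0.181 to 3.11 ± 1.67 and 0.931 ± 0.312 to 4.52 ± 2.43 CPM (SD, n = 3). Both were higher in TGFβ + RA than in TGFβ (2.69 ± 0.40 and 2.21 ± 0.45).

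Mx1 had 94.8, 85.2 and 78.4 CPM in IL-2 + IL-15, 62, 54.5 and 48.7 in RA, 13.4, 10.7 and 8.09 in TGFβ and 12, 24 and 22.2 in TGFβ + RA (ENSMUSG00000000386, chr16:97447035-97462907, minus strand). The group means descended from IL-2 + IL-15 through RA to TGFβ + RA and TGFβ, although TGFβ + RA replicate 1 lay within the range of the TGFβ libraries. The 6 libraries with TGFβ lay below the 6 without it. It fell 8.01-fold with TGFβ (-3.001 ± 0.21, adjusted p = 1.5e-07) and stayed lower in TGFβ + RA than in RA (-1.48 ± 0.20). With RA alone it was -0.64 ± 0.18, but lost that call on leaving out IL-2 + IL-15 replicate 1 (adjusted p = 0.0669) or RA replicate 2 (0.0618) (range over all alternatives 3.8e-04 to 0.0669). Mx2 fell by a like amount with TGFβ (-2.98 ± 0.33), from 6.24 ± 0.867 to 0.784 ± 0.174 CPM (SD, n = 3), and rose by 2.51 ± 0.34 when RA was added to TGFβ. The annotation lists Mx2 as a polymorphic pseudogene, a gene that is intact in some mouse strains.

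IFIT proteins bind foreign RNA, and their genes lie side by side on chromosome 19. All 4 were called higher in TGFβ + RA relative to IL-2 + IL-15 and against RA, as were 30.8% and 29.4% of all tested genes. Ifit1 had 10.4, 15.5 and 14.2 CPM in IL-2 + IL-15, 12.8, 10.9 and 9.75 in RA, 12.8, 10.8 and 8.65 in TGFβ and 20.01, 30.8 and 27.8 in TGFβ + RA. The TGFβ + RA libraries lay above the other 9, at 0.98 ± 0.18 relative to IL-2 + IL-15 (adjusted p = 3.4e-04) and 1.29 ± 0.18 against TGFβ. Ifit2 had 31.5, 36.7 and 36.7 CPM in IL-2 + IL-15, 33.5, 30.9 and 34.3 in RA, 39.9, 39.6 and 38 in TGFβ and 45.2, 52.3 and 50.3 in TGFβ + RA. It changed least of the 4, at 0.50 ± 0.07 in TGFβ + RA relative to IL-2 + IL-15.

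Ifit3 had 6.20, 11 and 9.06 CPM in IL-2 + IL-15, 4.55, 2.11 and 2.33 in RA, 14.6, 14.1 and 12 in TGFβ and 12.2, 25.4 and 22.6 in TGFβ + RA. RA libraries lay below those of IL-2 + IL-15 and TGFβ + RA libraries above them, at -1.56 ± 0.33 (adjusted p = 0.00293) and 1.21 ± 0.27 (adjusted p = 0.00158). TGFβ + RA replicate 1 overlapped with the TGFβ libraries. Ifit3b, a close copy of Ifit3, rose with TGFβ (1.44 ± 0.37) from 0.801 ± 0.165 to 2.20 ± 0.681 CPM (SD, n = 3). The treatment of reads that match both copies is not given in the sources used here, so the split between Ifit3 and Ifit3b is uncertain. The same holds for members of the Oas, Gbp, Irgm and Slfn families, which have close copies.

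ISG15 is a ubiquitin-like protein that is attached to other proteins during the interferon response. Its gene had 15, 19.6 and 14.2 CPM in IL-2 + IL-15, 19.6, 15.7 and 11.4 in RA, 7.54, 6.42 and 5.17 in TGFβ and 13.4, 26.4 and 21.9 in TGFβ + RA (ENSMUSG00000035692, chr4:156199424-156200818, minus strand). The TGFβ libraries lay below the other 9. It was 2.54-fold lower with TGFβ (-1.35 ± 0.25, adjusted p = 7.0e-04) and 3.25-fold higher in TGFβ + RA than in TGFβ (1.70 ± 0.25, adjusted p = 9.2e-05). RA alone gave -0.06 ± 0.23 (adjusted p = 0.884), with overlapping groups. Usp18, which removes ISG15 and damps signalling at IFNAR2, had 44, 50.5 and 35.4 CPM in IL-2 + IL-15, 20.4, 20.7 and 16.7 in RA, 12.4, 13.2 and 13.6 in TGFβ and 18.6, 35.8 and 32.3 in TGFβ + RA. Either addition alone left it below IL-2 + IL-15 without overlap, RA by -1.16 ± 0.19 (adjusted p = 5.2e-04) and TGFβ by -1.73 ± 0.20 (adjusted p = 1.0e-05). With TGFβ present, RA raised it by 1.16 ± 0.20.

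Herc6, a ligase that attaches ISG15 in the mouse, had 51.7, 55 and 50.7 CPM in IL-2 + IL-15, 57.6, 49.8 and 49.7 in RA, 49.1, 47.8 and 41.7 in TGFβ and 57.7, 67.1 and 63.8 in TGFβ + RA. The TGFβ + RA libraries reached the highest levels, 0.45 ± 0.08 above TGFβ (adjusted p = 4.1e-04). Trim25, a ubiquitin ligase of the RIG-I pathway, had 232, 258 and 261 CPM in IL-2 + IL-15, 224, 214 and 216 in RA, 171, 170.2 and 152 in TGFβ and 149.7, 173 and 172 in TGFβ + RA. The 6 libraries with TGFβ lay below the 6 without, at -0.61 ± 0.07 without RA and -0.40 ± 0.07 with it, and adding RA to TGFβ gave 0.01 ± 0.07 (adjusted p = 0.946). Trim30a was lower with RA (-0.46 ± 0.07), at 224 ± 19.3 CPM in IL-2 + IL-15 and 163 ± 5.68 in RA (SD, n = 3).

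Dtx3l and Parp9 encode a ubiquitin ligase and an ADP-ribosyltransferase that act as a pair. Dtx3l had 285, 343 and 362 CPM in IL-2 + IL-15, 335, 315 and 322 in RA, 376, 392 and 358 in TGFβ and 440.5, 468 and 462 in TGFβ + RA. TGFβ + RA libraries lay above all others (0.47 ± 0.07 relative to IL-2 + IL-15, adjusted p = 8.6e-05). Parp9 had 155, 179 and 175 CPM in IL-2 + IL-15, 157, 148 and 153 in RA, 168, 177 and 162 in TGFβ and 188, 219 and 211 in TGFβ + RA. It too was highest in TGFβ + RA (0.28 ± 0.07). The genes start from neighbouring sites on opposite strands, and 8.0% of the exon bases of Dtx3l and 9.40% of those of Parp9 lie opposite another exon. Parp14, another ADP-ribosyltransferase of this cluster, had 242, 304 and 298 CPM in IL-2 + IL-15, 268, 248 and 282 in RA, 262, 283 and 254 in TGFβ and 315, 356 and 353 in TGFβ + RA. Its TGFβ + RA libraries lay above the other 9, 0.36 ± 0.08 above TGFβ.

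The other effector genes included those that TGFβ lowered with or without RA. Rsad2 encodes viperin, which makes a nucleotide that stops viral polymerases, and Cmpk2 encodes the kinase that supplies its substrate. The genes are neighbours on chromosome 12 that run away from each other, 12752 bases apart. Rsad2 had 12.8, 16.4 and 13.7 CPM in IL-2 + IL-15, 18.8, 17 and 13.3 in RA, 6.28, 6.54 and 4.89 in TGFβ and 5.24, 11.3 and 9.16 in TGFβ + RA. The value with TGFβ was -1.27 ± 0.22 (adjusted p = 4.2e-04), and TGFβ + RA was -0.91 ± 0.21 against RA. Cmpk2 had 45.8, 51.9 and 48.5 CPM in IL-2 + IL-15, 44, 35.8 and 38.7 in RA, 22.6, 19.4 and 15.6 in TGFβ and 13.2, 16.2 and 17 in TGFβ + RA. Its 6 libraries with TGFβ lay below the 6 without, at -1.34 ± 0.12 (adjusted p = 1.4e-06) without RA and -1.34 ± 0.13 with it. Neither gene was called in TGFβ + RA against TGFβ (0.56 ± 0.23 and -0.30 ± 0.13, adjusted p = 0.0614 and 0.0727).

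Isg20, a nuclease of single-stranded RNA, was called higher with each addition. It had 26.3, 33 and 25 CPM in IL-2 + IL-15, 59.2, 45.6 and 47.7 in RA, 96, 78.8 and 75.1 in TGFβ and 117, 122 and 112 in TGFβ + RA (ENSMUSG00000039236, chr7:78913424-78920396, plus strand). The 4 groups did not overlap and rose in order from IL-2 + IL-15 to RA, then TGFβ, then TGFβ + RA. The increases were 0.86 ± 0.12 with RA (adjusted p = 1.7e-04), 1.57 ± 0.12 with TGFβ (adjusted p = 3.4e-07) and 2.06 ± 0.12 with both, which is 4.18-fold. Epsti1, a gene first described in epithelial cells in contact with stroma, had 714, 586 and 598 CPM in IL-2 + IL-15, 1102, 915 and 878 in RA, 324, 243 and 252 in TGFβ and 912, 735 and 727 in TGFβ + RA (ENSMUSG00000022014, chr14:77904239-78002657, plus strand). It was high in RA, low in TGFβ and near RA in TGFβ + RA. It rose with RA (0.61 ± 0.13, adjusted p = 0.00277), fell with TGFβ (-1.21 ± 0.13, adjusted p = 5.5e-06) and rose by 1.54 ± 0.13 when RA was added to TGFβ.

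Rtp4, a chaperone of receptors that also acts against RNA viruses, had 35.6, 46.3 and 44.9 CPM in IL-2 + IL-15, 38.4, 26.7 and 28.5 in RA, 29.7, 27.6 and 19.9 in TGFβ and 47.5, 66.3 and 56 in TGFβ + RA. TGFβ + RA libraries lay above all others, 1.14 ± 0.17 above TGFβ (adjusted p = 1.0e-04), although relative to IL-2 + IL-15 the value of 0.43 ± 0.16 lost its call on leaving out IL-2 + IL-15 replicate 1 (adjusted p = 0.14), TGFβ + RA replicate 2 (0.164) or TGFβ + RA replicate 3 (0.0653) (range over all alternatives 0.00408 to 0.164). Xaf1, which antagonises an inhibitor of cell death, had 65.6, 74.4 and 70.8 CPM in IL-2 + IL-15, 57.2, 54.2 and 58.3 in RA, 51, 56.4 and 47.1 in TGFβ and 69.3, 95.3 and 85.4 in TGFβ + RA. Its mean was lowest in TGFβ (-0.45 ± 0.10, adjusted p = 0.00233), and adding RA raised it by 0.70 ± 0.10. Ifi44 was scarce and fell 3.03-fold with RA (-1.60 ± 0.28) and 6.71-fold with TGFβ (-2.75 ± 0.31), from 7.45 ± 1.90 to 2.47 ± 0.463 and 1.10 ± 0.28 CPM (SD, n = 3). In TGFβ + RA it stood at 2.88 ± 1.25 CPM.

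Bst2 encodes tetherin, which holds budding virus particles at the cell surface. It was lower with TGFβ (-0.57 ± 0.08), at 126 ± 3.999, 117 ± 6.37, 85.3 ± 1.13 and 105 ± 13.8 CPM (SD, n = 3) in the 4 groups in the order given above. Samd9l, a restriction factor of poxviruses, had 412 ± 28.7, 358 ± 34.3, 303 ± 32 and 437 ± 29.2 CPM in the same order and was 0.53 ± 0.09 higher in TGFβ + RA than in TGFβ. Ifi27l2a was -0.80 ± 0.14 lower with TGFβ, from 155 ± 3.09 to 89 ± 13.5 CPM. Ifi35 was lower in each of the other groups than in IL-2 + IL-15 (-0.32 ± 0.05, -0.31 ± 0.05 and -0.32 ± 0.05). Of the exon bases of Ifi35, 16.8% lie opposite an exon on the other strand, and without the strand setting of the counting, which is not given in the sources used here, reads of the 2 strands cannot be told apart.

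Guanylate binding proteins (GBP) and immunity-related GTPases (IRG) attack the membranes around intracellular pathogens and are classic targets of interferon gamma. With TGFβ their values went the other way from those of the OAS and Mx genes: 5 of 8 were called higher (20.7% of all tested genes). Their median log2 fold change with TGFβ was 0.57, with a range of 0.08 to 1.69, where the OAS genes had a median of -1.30. In TGFβ + RA relative to IL-2 + IL-15, 8 of 8 were called higher (30.8% of all tested genes). Their summed level was 1611, 2172 and 2251 CPM in IL-2 + IL-15, 1329, 1422 and 1974 in RA, 3037, 3343 and 3165 in TGFβ, and 3783, 3830.1 and 3799 in TGFβ + RA. The 6 libraries with TGFβ lay above the 6 without it.

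Gbp2 had 99.3, 143 and 151 CPM in IL-2 + IL-15, 105, 116 and 141 in RA, 208, 233 and 225 in TGFβ and 362, 404 and 373 in TGFβ + RA (ENSMUSG00000028270, chr3:142620602-142638008, plus strand). The TGFβ libraries lay above those without TGFβ, and the TGFβ + RA libraries above all. It rose 1.70-fold with TGFβ (0.76 ± 0.13, adjusted p = 3.9e-04) and 2.90-fold with both (1.54 ± 0.13, adjusted p = 3.1e-07). Gbp3, which lies beside Gbp2 on chromosome 3, had 54.6, 60.6 and 62.1 CPM in IL-2 + IL-15, 50.8, 43.2 and 57.6 in RA, 58.9, 63.2 and 65.2 in TGFβ and 81.5, 92 and 80.7 in TGFβ + RA. It was above the other groups in TGFβ + RA (0.52 ± 0.09, adjusted p = 2.0e-04). Gbp7, the next gene in that cluster, had 103, 139 and 143 CPM in IL-2 + IL-15, 140.4, 144 and 154 in RA, 128, 147 and 139 in TGFβ and 188, 213 and 210.3 in TGFβ + RA. Its TGFβ + RA libraries also lay above the other 9 (0.67 ± 0.10).

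Gbp4 lies in a second cluster, on chromosome 5, and had 325, 405 and 426 CPM in IL-2 + IL-15, 309, 315 and 450.1 in RA, 484, 550.0 and 506 in TGFβ and 622, 679 and 699 in TGFβ + RA. TGFβ + RA was 0.79 ± 0.13 above IL-2 + IL-15 (adjusted p = 1.4e-04) without overlap. With TGFβ (0.41 ± 0.13) it lost its call on leaving out IL-2 + IL-15 replicate 1 (adjusted p = 0.0888) or TGFβ replicate 2 (0.0755) (range over all alternatives 4.1e-04 to 0.0888).

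Igtp, which encodes Irgm3, was the most abundant gene of the set per kilobase of exon in TGFβ and in TGFβ + RA, at 551 and 507 CPM per kilobase. It had 543, 733 and 739.5 CPM in IL-2 + IL-15, 322, 361 and 552 in RA, 1067, 1164 and 1112 in TGFβ and 1045, 1010.0 and 1023 in TGFβ + RA (ENSMUSG00000078853, chr11:58199556-58207591, plus strand). RA replicates 1 and 2 lay below IL-2 + IL-15, RA replicate 3 lay just above its lowest library, and the libraries with TGFβ lay above all of these. The values were -0.71 ± 0.16 with RA (adjusted p = 0.00509), 0.73 ± 0.16 with TGFβ (adjusted p = 0.00237) and -0.12 ± 0.16 for adding RA to TGFβ (adjusted p = 0.583). Irgm2, whose promoter printed above carries the same pair of motifs, had 209, 302 and 308 CPM in IL-2 + IL-15, 186, 191 and 260.2 in RA, 463, 485 and 453 in TGFβ and 589, 525 and 511 in TGFβ + RA. It rose by 0.77 ± 0.14 with TGFβ and 0.99 ± 0.14 with both. Of the exon bases of Igtp 8.01% and of Irgm2 4.39% are shared with an exon of another gene on the same strand, so their counts are not fully separate.

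Irgm1, a regulator of the other GTPases, had 199, 262 and 268 CPM in IL-2 + IL-15, 172, 190.1 and 222 in RA, 266, 287 and 277 in TGFβ and 342, 361 and 366 in TGFβ + RA. Its TGFβ + RA libraries lay above the other 9 (0.55 ± 0.10, adjusted p = 4.1e-04). Iigp1, which encodes the effector Irga6, had 78.5, 128 and 153 CPM in IL-2 + IL-15, 44.5, 61.2 and 137 in RA, 362, 413 and 387 in TGFβ and 553, 546 and 536 in TGFβ + RA. It showed the largest increase in the set with TGFβ among genes of at least 5 mean CPM, 3.23-fold (1.69 ± 0.31, adjusted p = 6.5e-04), and 4.54-fold with both (2.18 ± 0.32). Within the groups without TGFβ the values were widely spread, with IL-2 + IL-15 replicate 1 and RA replicates 1 and 2 low. Against RA the value in TGFβ + RA was 2.76 ± 0.33, and 3.34 without RA replicate 3.

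Schlafen proteins are regulators of T cell quiescence and of translation. Slfn1, which slows T cell division, had 211, 234 and 245 CPM in IL-2 + IL-15, 227, 195 and 249 in RA, 207, 205 and 189 in TGFβ and 390.2, 371 and 357 in TGFβ + RA. The TGFβ + RA libraries lay above the other 9, 0.70 ± 0.08 above IL-2 + IL-15 (adjusted p = 5.6e-06) and 0.90 ± 0.08 above TGFβ. Slfn5 had 26.4, 24.9 and 22.9 CPM in IL-2 + IL-15, 41.9, 26.1 and 27.4 in RA, 3.41, 3.21 and 2.40 in TGFβ and 6.35, 7.97 and 5.22 in TGFβ + RA (ENSMUSG00000054404, chr11:82951349-82964840, plus strand). It fell 8.20-fold with TGFβ (-3.04 ± 0.21, adjusted p = 1.3e-07), the largest decrease of the set in that comparison, and TGFβ + RA remained below RA (-2.27 ± 0.19). Of its exon bases 8.84% lie opposite an exon of another gene. Slfn8 had 167, 196 and 183 CPM in IL-2 + IL-15, 153, 145 and 139 in RA, 113, 111 and 96.9 in TGFβ and 144, 171 and 152 in TGFβ + RA. It was below IL-2 + IL-15 in RA (-0.32 ± 0.08) and TGFβ (-0.77 ± 0.08, adjusted p = 3.9e-06), and 0.55 ± 0.08 higher in TGFβ + RA than in TGFβ.

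**Figure D4:**
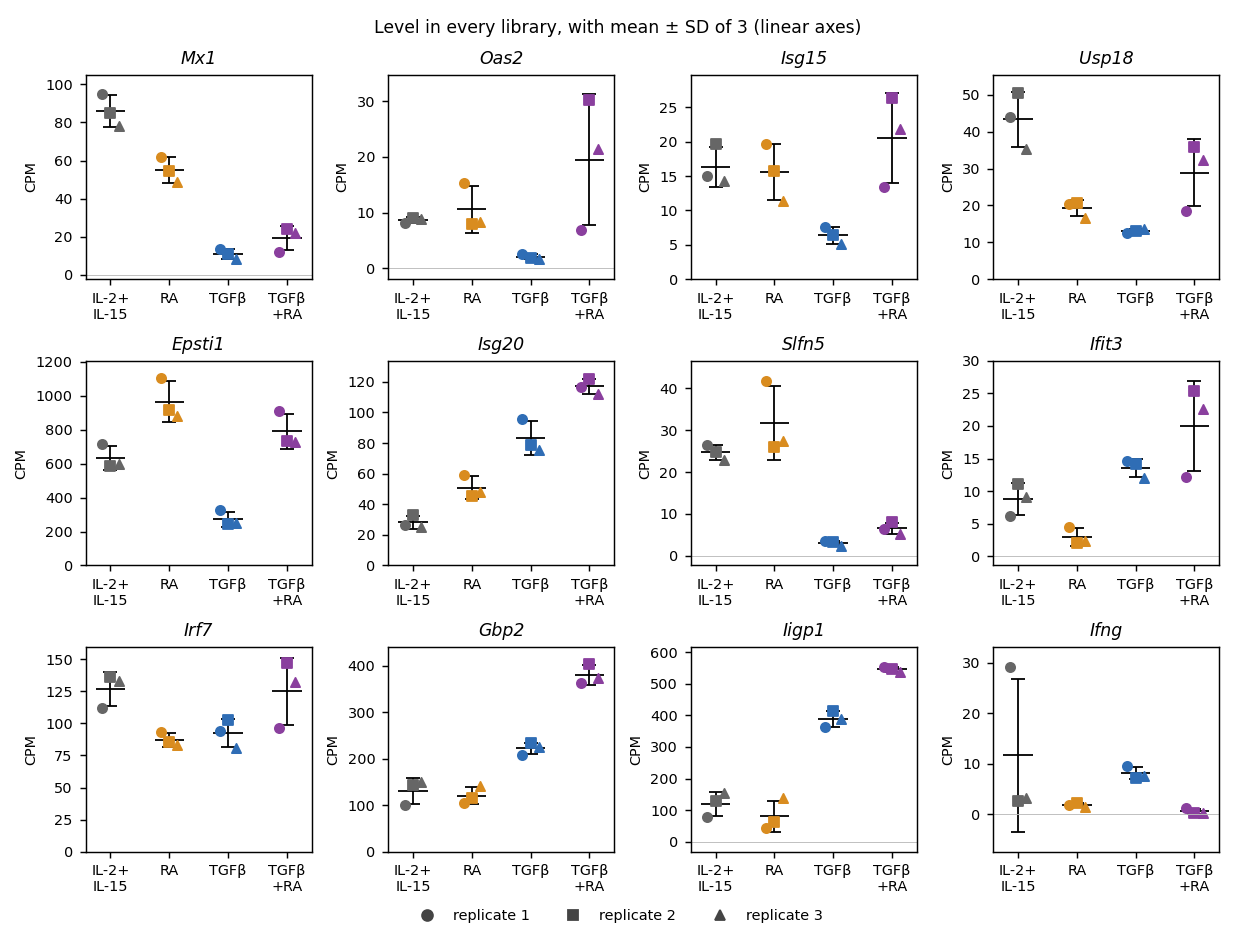
Level in CPM (linear y axes) of 11 of the genes and of Ifng in each culture (x axis), with a marker shape for each replicate and bars for mean ± SD of 3 libraries. Mx1 and Slfn5 stay low in TGFβ + RA, Epsti1 and Isg15 overlap there with RA, Isg20, Gbp2 and Iigp1 reach their highest level there, and the spread of Ifng in IL-2 + IL-15 comes from replicate 1.

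Whether the effect of RA differed with TGFβ present was tested as an interaction, the log2 fold change of TGFβ + RA against TGFβ minus that of RA relative to IL-2 + IL-15. Of the 51 genes 36 were called positive and 0 negative, where 6.95% of all tested genes were called positive and 12.3% negative. Unadjusted, 48 genes were positive and 1, Isg20, was negative at p under 0.05, and the Wald test of DESeq2 called 42 positive and 0 negative. The median interaction was 0.68, and 13 of the called genes had an interaction of at least 2-fold against 1.38% of all tested genes. The largest values were those of Ifi44 (3.02 ± 0.43), Oas2 (2.98 ± 0.60), Mx2 (2.74 ± 0.44), Oasl1 (2.59 ± 0.53) and Usp18 (2.32 ± 0.27). The 4 genes with the smallest adjusted p were Usp18 (6.4e-05), Slfn1 (8.9e-05), Slfn8 (1.2e-04) and Xaf1 (2.2e-04), with interactions of 0.94 ± 0.11 for Slfn1, 0.87 ± 0.11 for Slfn8 and 1.01 ± 0.14 for Xaf1.

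The 2 comparisons that give the effect of RA share no library, and their calls can be set side by side. Of the 51 genes, 8 were called lower with RA alone and higher when RA was added to TGFβ: Irf7, Zbp1, Mx1, Usp18, Xaf1, Ifi44, Irgm1 and Slfn8. That pair of calls was held by 0.450% of all tested genes. Another 26 were not called with RA alone and were higher with TGFβ present (13.1% of all tested genes), 8 were lower with RA alone and not called with TGFβ (3.80%), and 6 were called in neither (48.4%). The 3 genes Ifih1, Isg20 and Epsti1 were higher with RA in both (6.74%). Some of these calls were near the threshold and were lost on leaving out a single library. As given above, this held for Mx1 and Ifih1 with RA alone and for Irf7 when RA was added to TGFβ. With RA alone, Irgm1 (-0.32 ± 0.10) lost its call on leaving out IL-2 + IL-15 replicate 2 (adjusted p = 0.152), IL-2 + IL-15 replicate 3 (0.157), RA replicate 1 (0.165) or RA replicate 2 (0.119) or with only the 6 libraries compared (0.15) (range over all alternatives 8.6e-06 to 0.165). Xaf1 (-0.31 ± 0.10) lost it on leaving out IL-2 + IL-15 replicate 2 (adjusted p = 0.113), IL-2 + IL-15 replicate 3 (0.0746), RA replicate 1 (0.0675) or RA replicate 2 (0.111) (range over all alternatives 0.0025 to 0.113).

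The effect of TGFβ can be read in the same way, from TGFβ relative to IL-2 + IL-15 and TGFβ + RA against RA, which also share no library. Irf1, Ifit3b, Isg20, Gbp2, Gbp4, Igtp, Irgm2 and Iigp1 were called higher with TGFβ in both settings, as were 15.3% of all tested genes. Oas3, Mx1, Trim25, Rsad2, Cmpk2 and Slfn5 were called lower in both (18.4% of all tested genes). Irf7, Ddx58, Dhx58, Oas2, Usp18, Samd9l, Rtp4 and Xaf1 were lower with TGFβ without RA and higher with TGFβ in the presence of RA (0.435% of all tested genes). Of the remaining genes, 13 were lower without RA and not called with it (3.58%), and 16 were not called without RA and higher with it (13.7%). Ddx58 lost its call without RA (-0.21 ± 0.08) on leaving out IL-2 + IL-15 replicate 2 (adjusted p = 0.147), IL-2 + IL-15 replicate 3 (0.113), TGFβ replicate 1 (0.0674) or TGFβ replicate 3 (0.15) (range over all alternatives 9.7e-04 to 0.15). With RA, Oas2 (0.91 ± 0.38) lost its call on leaving out RA replicate 2 (adjusted p = 0.174), RA replicate 3 (0.117), TGFβ + RA replicate 2 (0.318) or TGFβ + RA replicate 3 (0.113) or by the Wald test of DESeq2 (0.103), with the replicate block (0.0716) or with only the 6 libraries compared (0.12) (range over all alternatives 5.9e-04 to 0.318). Usp18 (0.60 ± 0.19) lost it on leaving out RA replicate 3 (adjusted p = 0.0522), TGFβ + RA replicate 2 (0.094) or TGFβ + RA replicate 3 (0.0615) (range over all alternatives 2.2e-04 to 0.094), and Samd9l (0.29 ± 0.09) lost it on leaving out RA replicate 1 (adjusted p = 0.0749) or TGFβ + RA replicate 2 (0.05) (range over all alternatives 8.2e-04 to 0.0749).

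**Figure D5:**
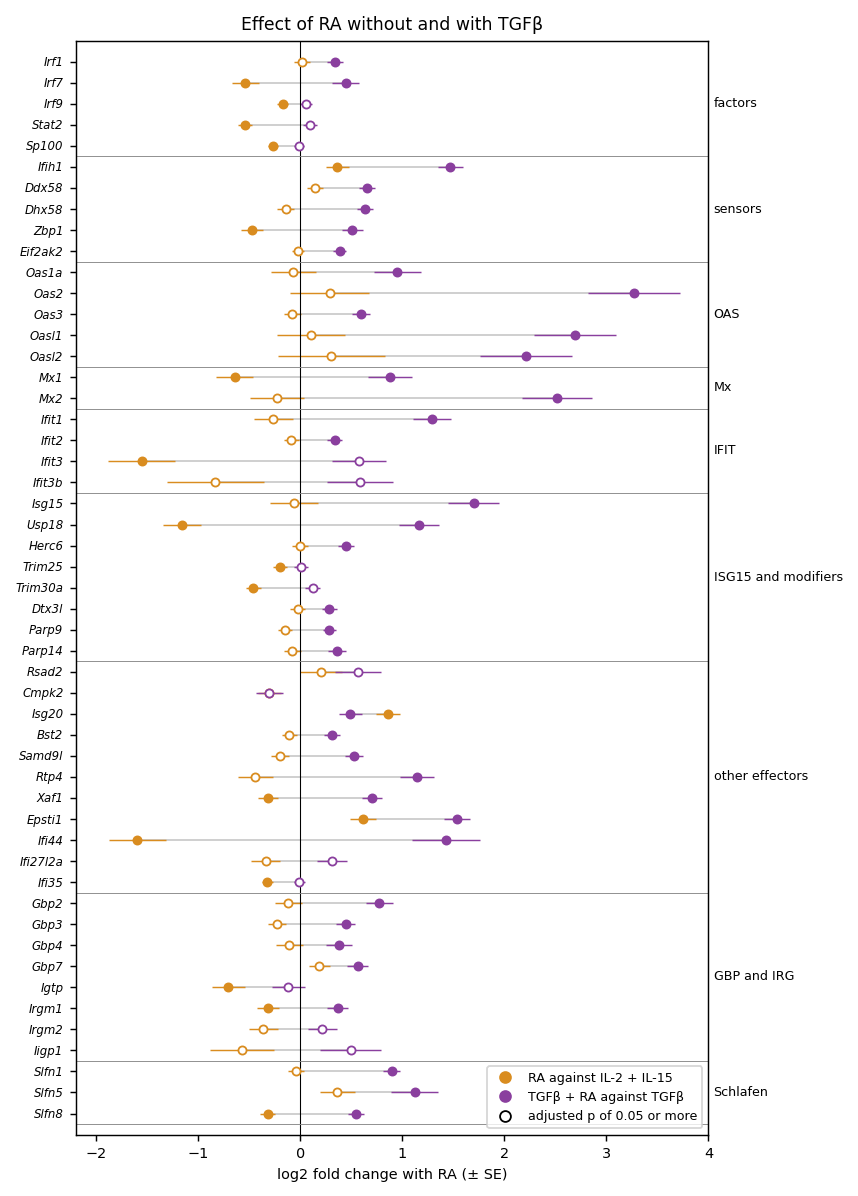
Log2 fold change ± SE (x axis) of each of the 51 genes (y axis, grouped by role) for RA relative to IL-2 + IL-15 and for TGFβ + RA against TGFβ, joined by a line, with open circles for values not called. For 49 of the 51 genes the value with TGFβ lies to the right of the value without it, the exceptions being Isg20 and Cmpk2.

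In 3 of the 4 groups 1 library held the lowest value for most of the genes. In TGFβ + RA, replicate 1 was the lowest of the 3 libraries for 42 of the 51 genes and replicate 2 the highest for 41, where these were the lowest and the highest for 38.7% and 33.5% of all tested genes. In IL-2 + IL-15, replicate 1 was the lowest for 40 (37.9% of all tested genes), and in TGFβ, replicate 3 was the lowest for 37 (30.6%). In RA the lowest value fell to replicates 1, 2 and 3 for 10, 22 and 19 genes (30.6%, 26.4% and 42.5%). The sum over the 51 genes was 7361, 8406 and 8371 CPM in IL-2 + IL-15, 7334, 6921 and 7617 in RA, 8001, 8345 and 7739.9 in TGFβ, and 10152, 10816 and 10472 in TGFβ + RA. The 3 TGFβ + RA libraries had the highest sums, and those of IL-2 + IL-15 overlapped both RA and TGFβ. The OAS genes summed to 371, 421 and 389 CPM in IL-2 + IL-15, 425, 370.2 and 332 in RA, 163, 170.1 and 151 in TGFβ, and 225, 317 and 267 in TGFβ + RA. All 6 libraries with TGFβ lay below the 6 without it. Most of that sum is Oas3, whereas Oas2, Oasl1 and Oasl2 had their highest means in TGFβ + RA.

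Per kilobase of exon, Ifi27l2a ranked first of the 51 genes in IL-2 + IL-15 at 335 CPM per kilobase, followed by Igtp at 332 and Epsti1 at 272. Epsti1 ranked first in RA at 416, and Igtp ranked first in both groups with TGFβ. Iigp1 moved from rank 29 in IL-2 + IL-15 and 34 in RA to rank 11 in TGFβ and 9 in TGFβ + RA, while Mx1 moved from rank 26 and 33 to 42 and 41. Oasl2, Ifit3b, Oasl1 and Ifi44 were at or near the bottom in every group.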

How the data were processed

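The data are counts of reads per gene in 12 libraries of cultured mouse CD8 T cells, 4 groups of 3 taken from the treatment in the labels. Stranded mRNA libraries were made with a TruSeq kit, per the labels' protocols, and reads were aligned with STAR and counted with featureCounts on GRCm38, per the submitters' processing notes. Versions, annotation release, strand setting and handling of multi-mapping reads: not given in the sources used here. Raw counts were deposited by the authors, without normalization. Every row names a gene (0 exceptions), and 0 sample columns stayed unused. Replicates differed by more than counting noise (chi-square per degree of freedom 3.90 to 24.2, highest for RA replicate 3), so each library is 1 replicate. Deviations from the group means correlated over 0.1 in 3 of 3 same-numbered pairs of IL-2 + IL-15 and RA (0.130 to 0.341), and the replicate number was taken to pair these groups, from the data and not from the labels. In no other pair of groups did all 3 pass 0.1. The main fit held no term for the replicate number, so its tests were unpaired, also for RA relative to IL-2 + IL-15.

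With edgeR 4.0.16 in R 4.3.3, filterByExpr (minimum count 10, by group) kept 14009 of 46078 genes. All 12 libraries were scaled by TMM and entered 1 quasi-likelihood fit with a mean per group (8 residual degrees of freedom), tested for 6 contrasts with Benjamini-Hochberg adjustment over all tested genes at 0.05. An SE is the absolute log2 fold change divided by the root of F, and it can understate the error of scarce genes. The fit was tested on simulated data. Alternatives were DESeq2 size factors, no filter, the DESeq2 1.42.0 Wald test, a block for the replicate number, each library left out in turn, only the 6 libraries compared, and, chosen after seeing the data, the 9 libraries left without IL-2 + IL-15 replicate 1, RA replicate 3 and TGFβ + RA replicate 1.

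The genes, the 56 pathway symbols, the role groups and the markers of CD8 T cells, neutrophils, monocytes and macrophages, dendritic cells, B cells, NK cells, CD4 T cells, and erythroid and stromal cells were chosen with earlier results of these data known. A further pathway gene is not reported here. Values in every library are given for up to 3 called genes per role group with the largest fold change of any of the first 3 comparisons, for those called higher in TGFβ or TGFβ + RA against IL-2 + IL-15, both with 5 CPM or more on average, and for the 4 with the smallest adjusted p of the interaction. Gene positions and exon overlaps are from GENCODE M21 for GRCm38, and promoters are from RefSeq on GRCm38.p6.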

Additional observations from a re-analysis of the deposited data

Results flagged for a closer look

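For 36 of the 51 genes the effect of RA with TGFβ present was higher than its effect without TGFβ, by the test of the difference itself (edgeR's quasi-likelihood test of the interaction, Benjamini-Hochberg adjusted p under 0.05, 3 libraries in each of 4 groups). The values are differences of log2 fold changes. Among the factors they were 0.98 for Irf7, 0.64 for Stat2 and 0.26 for Sp100. Among the sensors they were 1.11 for Ifih1, 0.51 for Ddx58, 0.78 for Dhx58, 0.98 for Zbp1 and 0.41 for Eif2ak2. OAS and Mx genes had some of the largest, with 1.02 for Oas1a, 2.98 for Oas2, 0.68 for Oas3, 2.59 for Oasl1, 1.52 for Mx1 and 2.74 for Mx2. The IFIT genes had 1.56 for Ifit1, 0.43 for Ifit2 and 2.13 for Ifit3.

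Isg15 had 1.76, Usp18 2.32, Herc6 0.45, Trim30a 0.58, Parp9 0.44 and Parp14 0.44. Of the other effectors, Bst2 had 0.42, Samd9l 0.73, Rtp4 1.58, Xaf1 1.01, Epsti1 0.93, Ifi44 3.02, Ifi27l2a 0.65 and Ifi35 0.31. Of the GBP and IRG genes, Gbp2 had 0.89, Gbp3 0.67 and Irgm1 0.68, and of the Schlafen genes Slfn1 had 0.94 and Slfn8 0.87. Oas1a lost its call on leaving out IL-2 + IL-15 replicate 1 (adjusted p = 0.0508), IL-2 + IL-15 replicate 2 (0.0963), IL-2 + IL-15 replicate 3 (0.0653), RA replicate 2 (0.098), RA replicate 3 (0.0509), TGFβ replicate 1 (0.0671), TGFβ replicate 3 (0.104), TGFβ + RA replicate 2 (0.103) or TGFβ + RA replicate 3 (0.0567) (range over all alternatives 0.00206 to 0.104). Ifi27l2a lost its call on leaving out IL-2 + IL-15 replicate 1 (adjusted p = 0.0587), IL-2 + IL-15 replicate 2 (0.0853), IL-2 + IL-15 replicate 3 (0.0707), RA replicate 2 (0.104), TGFβ replicate 2 (0.0586), TGFβ replicate 3 (0.0982), TGFβ + RA replicate 2 (0.104) or TGFβ + RA replicate 3 (0.0887) (range over all alternatives 0.00227 to 0.104). Parp14 lost its call on leaving out IL-2 + IL-15 replicate 2 (adjusted p = 0.0638), IL-2 + IL-15 replicate 3 (0.0546), RA replicate 2 (0.062), TGFβ replicate 3 (0.0554), TGFβ + RA replicate 2 (0.0517) or TGFβ + RA replicate 3 (0.0507) (range over all alternatives 3.9e-05 to 0.0638), and Sp100 lost its call on leaving out IL-2 + IL-15 replicate 2 (adjusted p = 0.054), TGFβ replicate 3 (0.052) or TGFβ + RA replicate 2 (0.0536) (range over all alternatives 6.9e-04 to 0.054).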

How the results depend on the processing

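The counts of genes called kept within 1.5 times of their main value under every alternative run, with these exceptions. With the 9 libraries, RA relative to IL-2 + IL-15 had 26 genes called lower instead of 16. In TGFβ + RA against TGFβ 1 gene was called lower instead of 0 with no filter, with only the 6 libraries compared, with the 9 libraries and without TGFβ replicate 3. In the interaction 1 gene was called negative instead of 0 without IL-2 + IL-15 replicate 2. Leaving out each library in turn gave, higher and lower, 2 to 3 and 11 to 20 for RA, 7 to 9 and 25 to 29 for TGFβ, 23 to 29 and 11 to 14 for both additions relative to IL-2 + IL-15, 35 to 40 and 0 to 1 against TGFβ alone, 29 to 34 and 6 to 7 against RA alone, and 32 to 42 and 0 to 1 for the interaction. The cause of these moves was not tested. DESeq2 size factors moved the median of all genes by less than 0.01 (log2). Of 3356 values of single genes under the alternatives, pathway genes included, 3194 stayed on their side of the threshold, 162 lost a call and 0 turned in direction.

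With the replicate number as a block, the counts higher and lower were 3 and 16 for RA, 11 and 27 for TGFβ, 28 and 13 for both additions relative to IL-2 + IL-15, 38 and 0 against TGFβ alone, 31 and 7 against RA alone, and 43 and 0 for the interaction. The numbers paired the samples of RA and IL-2 + IL-15, and there the block changed no call of the 51 genes. In the other comparisons they were not taken to pair the samples, since not every same-numbered pair correlated over 0.1 (-0.0039 to 0.215), although 12 of 12 libraries correlated best with their own number, a hint from the data and not the design.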
